A study of Rattus norvegicus with 48 samples.

Results

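The transcripts described here are 10 genes of bone morphogenetic protein (BMP) and activin receptor signalling: the ligands Bmp4 and Bmp6, the type I receptors Acvrl1, Acvr1 and Bmpr1a, the type II receptors Bmpr2, Acvr2a and Acvr2b, and the modulators Bambi and Bmper. They were chosen by name as members of the pathway, with earlier results of these data known. An Ensembl identifier was paired with the symbol of 9 of the 10, and these 9 were all among the 13050 genes tested of 32624 listed features. Bmper had no identifier here, so its expression was not analysed.

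RNA was measured by sequencing of polyadenylated transcripts in cerebral endothelial cells (CECs), the cells that form the wall of brain capillaries and carry the blood-brain barrier. The cells were isolated from the pooled cerebral cortices of male Wistar-Han rats. AL rats had free access to food, and F1, F2 and F3 rats were deprived of food for 1, 2 and 3 days. Microglia were first removed with an antibody to CD11b and endothelial cells were then retained with an antibody to CD31, so each sample is a bulk preparation selected on a single surface protein. There were 3 samples per group, which the paper describes as biological replicates from independent experiments. Each isolation used 4 rats, so a sample is a pool. The samples are named i, j and k, and whether a letter marks the same experiment in every group is not stated. Each was sequenced as 4 technical replicates that were summed. AL rats served as the control for every fasted group.

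BMPs and activins are dimeric ligands of the TGF-β family. They bring type II receptor kinases together with type I receptor kinases, which then phosphorylate SMAD transcription factors. In endothelium the type I receptor ALK1, encoded by Acvrl1, is known as the receptor of circulating BMP9 and BMP10, and its loss in humans causes hereditary hemorrhagic telangiectasia. ALK2, encoded by Acvr1, is a type I receptor for BMP6 and BMP7 and can also bind activin A.

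The summed samples held 20718644 to 25960874 reads assigned to genes. Values are given as normalised read counts, that is reads scaled to the mean effective library size. They can be compared between samples for the same gene, and not between genes, since transcript lengths were not available. F2 sample j stood apart: the chi-square of its counts, per degree of freedom, was 48.8 and 51.5 against F2 samples i and k, and 9.75 to 24.8 in the other pairs within a group. LFC values of the members that involve F2 rats are therefore given with and without it. F2 sample j also entered the estimate of spread shared by all groups, so it bears on the tests of F1 and F3 rats. One technical replicate of F1 sample k carried a label naming another fast, although the technical replicates of that sample agreed within sampling noise (1.02 on the same scale).

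Markers of endothelium were abundant. Reads of the 4 of 8 endothelial markers that had an identifier, Pecam1, Slco1c1, Abcb1a and Abcg2, summed to 237092 to 241748 normalised counts in AL rats, 221855 to 233192 in F1 rats, 234119 to 253375 in F2 rats and 208027 to 234081 in F3 rats. Every F1 and F3 sum was below every AL sum, as was true of Acvr1 and Acvrl1. Of the 4 markers, only Slco1c1 had this order, with means of 110247 (AL), 90167 (F1) and 88795 (F3). Abcg2 had an LFC of 0.18 after 1 day of fasting (adjusted p = 0.467) and 0.23 after 3 days (adjusted p = 0.266). For Abcb1a these values were -0.005 (adjusted p = 0.983) and 0.009 (adjusted p = 0.964). The part of endothelial content in the falls of Acvr1 and Acvrl1 was not tested. Pecam1, which encodes CD31, ranged from 31655 to 35586 in AL rats, 35876 to 38791 in F1 rats (LFC 0.16, adjusted p = 0.233), 31872 to 32294 in F2 rats and 33083 to 34609 in F3 rats. The thyroid hormone transporter gene Slco1c1 had an LFC of -0.29 in F1 rats (adjusted p = 0.0534) and fell in F3 rats (LFC -0.31, adjusted p = 0.0255). Of the other cell types, 3 of 9 mural cell markers (Abcc9, Anpep and Acta2) summed to 1908 to 4372 in AL rats, 2066 to 2365 in F1 rats, 2451 to 4744 in F2 rats and 1689 to 4443 in F3 rats. The 6 of 9 microglial markers measured summed to 56.7 to 134 in all samples, and the ranges of the 4 groups overlapped. The astrocyte marker Aldoc ranged from 1545.5 to 1588 in F3 rats and from 1825.5 to 2155 in AL rats (LFC -0.34, adjusted p = 0.111), and its part in the falls in F3 rats was not tested. The red blood cell marker Alas2 ranged from 36.1 to 110. The identifiers of neuronal, oligodendrocyte and fibroblast markers were not available here.

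Acvr1 was the member with the clearest response. Its transcript fell by 25.2% in F1 rats, fell by 33.2% in F3 rats, and did not pass the test in F2 rats. Acvrl1 fell by 16.7% in F3 rats, and Bmp6 rose 2.00-fold in F1 rats from a low level. The 6 other members tested passed in none of the comparisons. Against AL rats, 2 of 9 members were called after 1 day of fasting, 0 after 2 days and 2 after 3 days by the quasi-likelihood test of edgeR (Benjamini-Hochberg adjusted p over all genes of at most 0.05). The shares of all genes called were 6.56%, 0.858% and 12% in these comparisons. In F2 rats 0 members also had an unadjusted p under 0.05, against 12.8% of all genes, and DESeq2 called 0. The median log2 fold change (LFC) of the 9 members was -0.14, -0.07 and -0.04 in F1, F2 and F3 rats, beside -0.004, -0.008 and -0.005 over all genes. The 3 comparisons share the AL samples and are not independent.

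**Figure D1:**
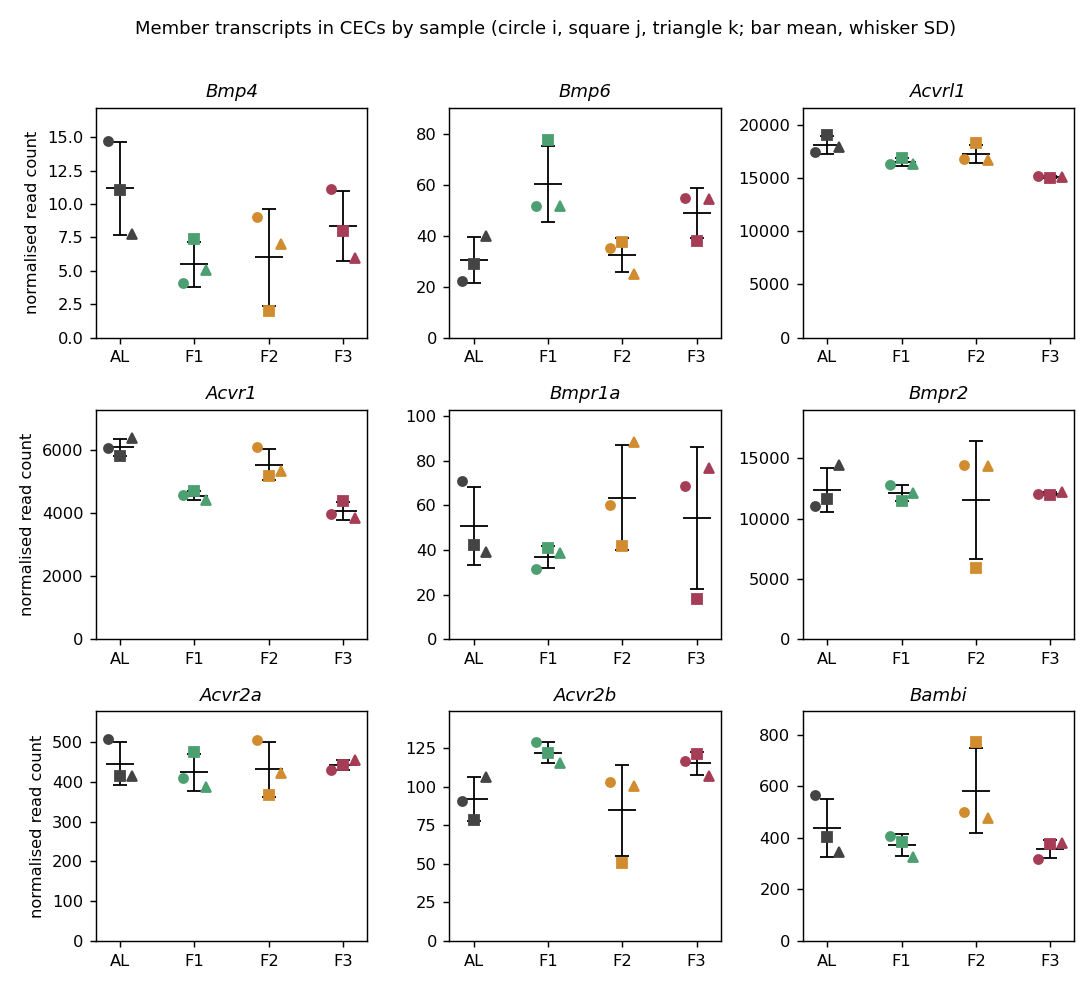
Normalised read counts (vertical axes, each starting at 0) of the 9 members with an identifier in the 12 samples, by group on the horizontal axis. Symbols are the samples i, j and k, bars are group means and whiskers are SD (n = 3). All F1 and F3 samples of Acvr1 lie below all AL and F2 samples, and F2 sample j is far below the other F2 samples for Bmpr2.

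The ligands came first in the pathway and drew few reads in these cells. Bmp6, a ligand of ALK2 that liver endothelium is known to release as a regulator of iron metabolism, had 22.1, 29.1 and 40 normalised counts in AL samples i, j and k. The counts were 51.8, 77.8 and 51.7 in F1 rats, 35.1, 37.6 and 25.1 in F2 rats, and 54.8, 37.8 and 54.6 in F3 rats. All F1 samples were above all AL and F2 samples, while F3 overlapped with AL. The means were 30.4 ± 9.03, 60.4 ± 15.0, 32.6 ± 6.65 and 49.1 ± 9.75 (SD, n = 3) in AL, F1, F2 and F3 rats.

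The LFC of Bmp6 was 1.00 (SE 0.28, adjusted p = 0.0456) in F1 rats. In F2 rats it was 0.11 (adjusted p = 0.906, and -0.0020 without F2 sample j) and in F3 rats 0.70 (SE 0.28, adjusted p = 0.124). These counts rest on 24 to 74 reads per sample, and the call in F1 rats was just inside the threshold. It was lost under 13 of 23 other settings, in which the adjusted p reached 0.209, and the LFC lay between 0.78 and 1.24 over all 23. Among these were the omission of the technical replicate with the conflicting label (adjusted p = 0.0529) and a covariate for the mural markers (adjusted p = 0.0623). Without AL sample i, the lowest, the LFC was 0.81 (adjusted p = 0.170), and without F1 sample j, the highest, it was 0.78 (adjusted p = 0.209). The difference between F2 and F1 rats was -0.89 and missed the threshold (adjusted p = 0.113, and -1.0 with adjusted p = 0.121 without F2 sample j).

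The 250 bases before the annotated start of Bmp6 are shown because it was the only member called for which the promoter table of RefSeq had an entry (build GRCr8, chr17:26675262-26675511, minus strand, written 5′ to 3′). The palindrome GGCGCC, a known GC-rich binding motif of SMAD1 and SMAD5 that reads the same on both strands, would be in capitals. It was found nowhere in this sequence.

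Bmp6: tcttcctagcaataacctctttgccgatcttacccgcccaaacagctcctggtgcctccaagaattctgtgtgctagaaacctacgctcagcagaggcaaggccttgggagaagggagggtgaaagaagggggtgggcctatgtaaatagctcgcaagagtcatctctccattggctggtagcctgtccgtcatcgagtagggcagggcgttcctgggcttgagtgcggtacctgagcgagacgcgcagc

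Bmp4, the ligand that patterns many embryonic tissues, was barely detected. Its counts were 14.7, 11 and 7.8 in AL rats, 4.1, 7.4 and 5.1 in F1 rats, 9.0, 2.0 and 7.0 in F2 rats, and 11.1, 8.0 and 6.0 in F3 rats. These values rest on 2 to 16 reads per sample. F1 and AL did not overlap, but the LFC of -1.03 had an SE of 0.50 and an adjusted p of 0.243, with a 95% interval from -2.09 to 0.04. The LFC was -0.90 in F2 rats (adjusted p = 0.452, and -0.49 with adjusted p = 0.667 without F2 sample j) and -0.42 in F3 rats (adjusted p = 0.607).

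Of 31 ligands of the TGF-β family listed, 5 had an identifier: Bmp2, Bmp4, Bmp6, Bmp7 and Bmp15. One of the 5 rose in F1 rats, Bmp6, beside 6.56% of all genes called. In F2 and F3 rats 0 were called, beside 0.858% and 12% of all genes. Bmp2, which signals through BMPR1A, had the most reads of the 5, a ranking that also depends on transcript length. It had 69.9, 69.2 and 93.3 normalised counts in AL rats and 50.1, 48.7 and 59.6 in F3 rats. These groups did not overlap, and the LFC of -0.55 did not pass (SE 0.24, adjusted p = 0.167). Its LFC was -0.25 in F1 rats and -0.40 in F2 rats (adjusted p = 0.606 and 0.520).

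Among the type I receptors, Acvr1 had 6062, 5811 and 6354 normalised counts in AL samples i, j and k. The counts were 4557, 4676 and 4407 in F1 rats, 6071, 5172 and 5336 in F2 rats, and 3967, 4377 and 3828 in F3 rats. Every F1 and F3 sample was below every AL and F2 sample, and the F3 samples were also below the F1 samples. F2 overlapped with AL. The means were 6076 ± 272, 4547 ± 135, 5526 ± 479 and 4057 ± 286 (SD, n = 3).

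The LFC of Acvr1 was -0.42 in F1 rats (SE 0.08, adjusted p = 0.00772), -0.14 in F2 rats (SE 0.08, adjusted p = 0.505, and -0.09 with adjusted p = 0.642 without F2 sample j) and -0.58 in F3 rats (SE 0.08, adjusted p = 0.000438). The calls in F1 and F3 rats were kept under all 23 other settings, in which the LFC lay between -0.48 and -0.38 in F1 rats and between -0.64 and -0.53 in F3 rats. With a covariate for the mural markers they were -0.42 (adjusted p = 0.0123) and -0.58 (adjusted p = 0.000784). In bulk samples, fewer cells that express a gene and less RNA per cell cannot be told apart.

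The days of fasting were also compared directly. Acvr1 was lower in F3 than in F2 rats, with an LFC of -0.45 (SE 0.08, adjusted p = 0.00819), and it was the only 1 of 9 members called, beside 5.94% of all genes. Without F2 sample j this LFC was -0.49 (adjusted p = 0.00622), and it lost the call when only the samples compared were fitted (-0.44, adjusted p = 0.0531). Between F2 and F1 rats the LFC was 0.28 and did not pass (SE 0.08, adjusted p = 0.0887, and 0.33 with adjusted p = 0.0572 without F2 sample j). For that comparison 0 members were called beside 1.43% of all genes, 4 had an unadjusted p under 0.05 beside 17.3% of all genes, and DESeq2 called 2, Acvr1 and Bambi. Between F3 and F1 rats the LFC was -0.16 (SE 0.08, adjusted p = 0.996). Here 0 members and 0% of all genes were called, 0 members had an unadjusted p under 0.05 beside 4.44% of all genes, and DESeq2 called 0. In the joint test of the 4 groups, Acvr1 was again the only member called (adjusted p = 0.00157), beside 10.1% of all genes.

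Acvrl1, which encodes ALK1, had 17439.7, 19095 and 17916 normalised counts in AL samples i, j and k. The counts were 16300.1, 16936 and 16335 in F1 rats, 16796, 18313 and 16753 in F2 rats, and 15206, 15064 and 15101 in F3 rats. All F3 samples were below all samples of the other groups, and the F1 samples were below the AL samples, whereas F2 overlapped with both. The F3 samples lay close together, with a mean of 15123 ± 73.6 against 18150.3 ± 852 in AL rats, 16524 ± 358 in F1 rats and 17287 ± 889 in F2 rats (SD, n = 3).

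The fall of Acvrl1 in F3 rats was small, with an LFC of -0.26 (SE 0.07, adjusted p = 0.0263). It was called with a covariate for the mural markers (-0.26, adjusted p = 0.0411). The call was lost under 6 of 23 other settings, with an LFC of -0.31 to -0.23 over all of them. Removal of any F3 sample, or of AL sample j or k, gave adjusted p values of 0.0583 to 0.0890, and fitting without a filter on low counts gave 0.0673. The LFC was -0.14 in F1 rats (SE 0.07, adjusted p = 0.300) and -0.07 in F2 rats (adjusted p = 0.727, and -0.11 with adjusted p = 0.459 without F2 sample j). Between F3 and F2 rats it was -0.19 (adjusted p = 0.123, and -0.15 with adjusted p = 0.219 without F2 sample j). This difference was called under 1 of 23 other settings, DESeq2 (-0.19, adjusted p = 0.0150).

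**Figure D2:**
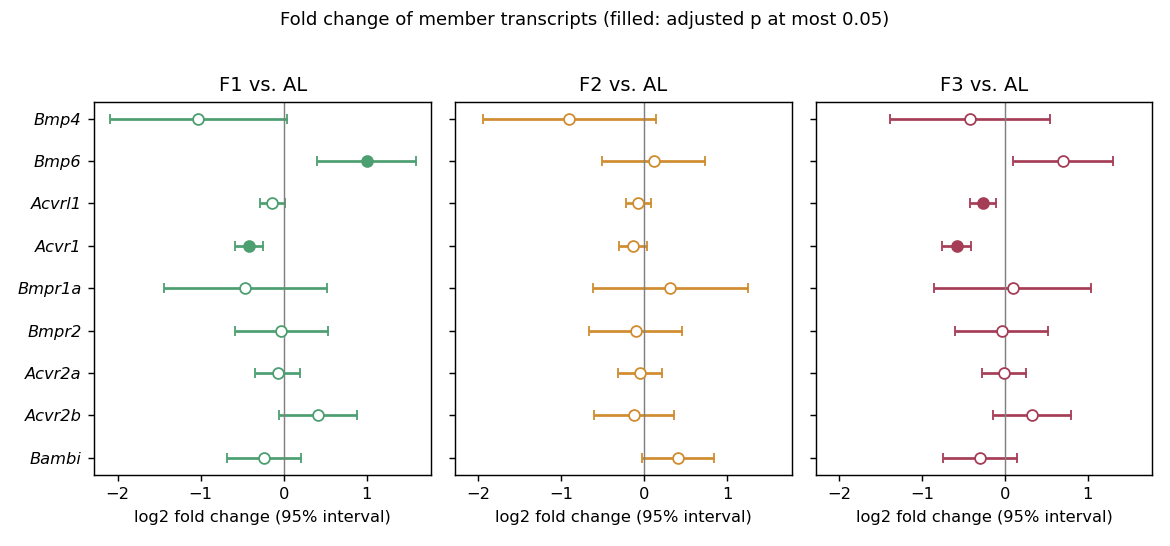
Log2 fold change of the 9 members against AL rats in F1, F2 and F3 rats (horizontal axes), with 95% intervals from the edgeR model. Filled symbols have an adjusted p of at most 0.05. Acvr1 is filled in F1 and F3, Bmp6 in F1 and Acvrl1 in F3, and the intervals of Bmp4 and Bmpr1a are the wide ones.

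Acvr1 and Acvrl1 reads of the same sample can be set against each other without regard to library size. There were 0.348, 0.304 and 0.355 Acvr1 reads per Acvrl1 read in AL samples i, j and k. The ratios were 0.280, 0.276 and 0.270 in F1 rats, 0.361, 0.282 and 0.318 in F2 rats, and 0.261, 0.291 and 0.253 in F3 rats. The means were 0.336 ± 0.0272, 0.275 ± 0.00496, 0.321 ± 0.0396 and 0.268 ± 0.0196 (SD, n = 3), and the F1 and F3 samples were all below the AL samples. The ratio is no ratio of molecules, because transcript length enters it, and it was not tested.

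**Figure D3:**
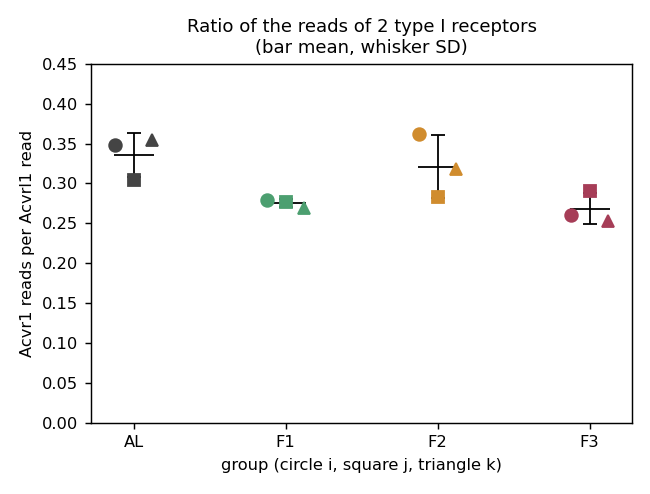
Acvr1 reads per Acvrl1 read (vertical axis, starting at 0) in the 12 samples by group. Symbols are samples i, j and k, bars are means and whiskers SD (n = 3). The F1 and F3 samples lie between 0.253 and 0.291, and the AL samples between 0.304 and 0.355.

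The third type I receptor measured among the members, Bmpr1a, which encodes the BMP2 and BMP4 receptor ALK3, had low and scattered counts. They were 38.9 to 70.9 in AL rats, 31.5 to 41.0 in F1 rats, 41.6 to 88.2 in F2 rats and 17.9 to 76.5 in F3 rats. The LFC was -0.46, 0.31 and 0.10 in F1, F2 and F3 rats (adjusted p = 0.620, 0.808 and 0.921), and without F2 sample j it was 0.54 in F2 rats (adjusted p = 0.651). The 95% interval in F3 rats ran from -0.85 to 1.04.

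The type II receptors passed the test in no group. Bmpr2, the BMP type II receptor whose mutations underlie heritable pulmonary arterial hypertension, had 11049, 11665 and 14487 normalised counts in AL samples i, j and k. The counts were 12810.4, 11499 and 12117 in F1 rats, 14442, 5874 and 14334 in F2 rats, and 12058, 11939 and 12173 in F3 rats. F2 sample j had fewer Bmpr2 reads than any other sample, and all groups overlapped with AL. The LFC was -0.03, -0.10 and -0.04 in F1, F2 and F3 rats (SE 0.26 each, adjusted p = 0.964, 0.905 and 0.946). Without F2 sample j the LFC in F2 rats was 0.21 (adjusted p = 0.344), and its sign was reversed. F2 sample j also had the lowest sum of mural markers of its group, 2451 against 4351 and 4744. AL sample k, with a sum of 1908, and F3 sample j, with 1689, had lower sums still and Bmpr2 counts of 14487 and 11939. These sums rest on 3 of 9 mural markers, and the part of mural cells in the Bmpr2 counts was not tested.

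Acvr2a and Acvr2b encode activin type II receptors, which also bind BMPs. Acvr2a ranged from 414 to 508 in AL rats, 386 to 475 in F1 rats, 367 to 505 in F2 rats and 429.7 to 456 in F3 rats. Its LFC was -0.07, -0.05 and -0.01 (SE 0.12 each, adjusted p = 0.790, 0.906 and 0.971), and without F2 sample j it was 0.06 in F2 rats (adjusted p = 0.872). The 95% interval in F3 rats was -0.28 to 0.25.

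Acvr2b ranged from 78.2 to 107 in AL rats, 116 to 129 in F1 rats, 50.5 to 103 in F2 rats and 107 to 121 in F3 rats. The F1 and F3 samples were all above the AL and F2 samples. The differences did not pass the test, with an LFC of 0.41 in F1 rats (SE 0.22, adjusted p = 0.314) and 0.33 in F3 rats (SE 0.22, adjusted p = 0.391). In F2 rats it was -0.12 (adjusted p = 0.869), and 0.15 without F2 sample j (adjusted p = 0.734), which was the lowest.

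Of 17 receptors and co-receptors of the family listed, 9 had an identifier. The receptors called were Acvr1, lower in F1 rats, and Acvr1 and Acvrl1, lower in F3 rats. The 3 that are not members, Acvr1b, Acvr1c and Amhr2, had means of 31.2, 55.0 and 13.0 normalised counts over all samples and were called in no comparison. The median LFC of the 9 receptors against AL rats was -0.13, -0.07 and -0.04 in F1, F2 and F3 rats.

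Bambi encodes a membrane pseudoreceptor without a kinase domain that dampens TGF-β family signals, and is itself a known target of BMP signalling. It had 565, 404 and 346 normalised counts in AL samples i, j and k. The counts were 409, 384 and 327 in F1 rats, 498, 772 and 476 in F2 rats, and 317, 375 and 380.3 in F3 rats. All F2 samples were above all F1 and F3 samples, and each group overlapped with AL.

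The LFC of Bambi against AL rats was -0.24, 0.41 and -0.30 in F1, F2 and F3 rats (SE 0.20 each, adjusted p = 0.570, 0.432 and 0.408), and without F2 sample j it was 0.15 in F2 rats (adjusted p = 0.751). Between F3 and F2 rats it was -0.70 (SE 0.20, adjusted p = 0.0626), and between F2 and F1 rats 0.64 (SE 0.20, adjusted p = 0.132). Both missed the threshold, although the first was called under 5 of 23 other settings, DESeq2 among them (adjusted p = 0.0111). Without F2 sample j, which had the highest count, these differences were -0.45 (adjusted p = 0.176) and 0.39 (adjusted p = 0.291).

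The 250 bases before the annotated start of Bambi are shown because it is the member best known as a target of BMP signalling (RefSeq, build GRCr8, chr17:58821004-58821253, minus strand, written 5′ to 3′). The capitals mark the motif GGCGCC, which begins 74 bases before the start.

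Bambi: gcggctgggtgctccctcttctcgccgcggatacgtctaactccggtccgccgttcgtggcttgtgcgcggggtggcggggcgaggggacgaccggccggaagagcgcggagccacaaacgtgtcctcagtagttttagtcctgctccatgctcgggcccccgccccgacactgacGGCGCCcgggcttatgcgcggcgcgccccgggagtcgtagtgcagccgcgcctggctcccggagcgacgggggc

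Windows of 300 bases, 250 before to 50 after the start, were available for 8 members, and 3 of them, Acvr2a, Bmper and Bambi, held the motif. It occurred in 11.02% of the 33469 promoters in the table. A match is a description of the letters only. Acvrl1 and Acvr1 had no entry.

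The remaining lists of the pathway had few identifiers, because the gene list that pairs symbols with identifiers was available only in part. Genes without an identifier here may still have reads in these cells, and they were not assessed. Of 15 extracellular or membrane modulators, 2 had one, Bambi and Bmp1. Against AL rats 0 were called, beside 6.56%, 0.858% and 12% of all genes in F1, F2 and F3 rats. Bmp1, a protease that cleaves the BMP antagonist chordin and procollagens, ranged from 945 to 1283 with an LFC of -0.07, 0.10 and -0.005 in F1, F2 and F3 rats (adjusted p = 0.742, 0.715 and 0.982). Of 12 SMADs and their regulators, 0 had an identifier.

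Of 17 known endothelial targets of BMP signalling, 4 had an identifier: Apln, Angpt2, Atoh8 and Bambi. The list assigned no direction of regulation to them. One of the 4 was called against AL rats, Apln, lower in F3 rats, where 12% of all genes were called. Apln encodes the peptide apelin of endothelial tip cells and had 245, 284 and 311 normalised counts in AL rats and 116, 136 and 179.7 in F3 rats. The groups did not overlap, with an LFC of -0.96 (SE 0.24, adjusted p = 0.0230).

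Apln had 152, 265 and 231 normalised counts in F1 rats and 193, 352 and 282 in F2 rats. The LFC was -0.37 (adjusted p = 0.424) and -0.02 (adjusted p = 0.984), the latter -0.23 without F2 sample j (adjusted p = 0.717). F3 rats were lower than F2 rats by an LFC of -0.94 (adjusted p = 0.0411), and without F2 sample j, the highest, by -0.72 (adjusted p = 0.130). This call was lost under 8 of 23 other settings, with adjusted p up to 0.167. The call in F3 rats was lost under 4 of 23 other settings, each of them without 1 AL or F3 sample, with adjusted p up to 0.105.

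Angpt2, the TIE2 ligand that destabilises vessels, ranged from 621 to 1259 in AL rats, 1315 to 1686 in F1 rats, 1141 to 1361 in F2 rats and 1109.9 to 1365 in F3 rats. Its LFC was 0.76, 0.58 and 0.55 (adjusted p = 0.0614, 0.291 and 0.131), and without F2 sample j it was 0.54 in F2 rats (adjusted p = 0.444). AL sample j, at 1259, stood above the other AL samples at 621 and 702. Without it, the LFC was 1.14, 0.96 and 0.94 (adjusted p = 0.000698, 0.00474 and 0.000891). In F1 rats Angpt2 was called under 4 of 23 other settings. With all samples kept these were DESeq2 (adjusted p = 0.00536), the expression filter of edgeR (0.0388) and a filter of at least 10 reads (0.0403). In F2 and F3 rats it was called under 1 of 23 each, which left out AL sample j.

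Atoh8, a transcription factor gene, lay outside the rule for named genes and is given after its values were seen. It ranged from 36.1 to 50.6 normalised counts in AL rats, 17.9 to 29.4 in F1 rats, 19.0 to 39.6 in F2 rats and 17.9 to 28.8 in F3 rats. These counts rest on 17 to 55 reads per sample. The F1 and F3 samples were all below the AL samples. The LFC was -0.94, -0.46 and -0.97 in F1, F2 and F3 rats and did not pass (adjusted p = 0.0984, 0.557 and 0.0606), although the value in F3 rats was called under 5 of 23 other settings. Without F2 sample j the LFC in F2 rats was -0.68 (adjusted p = 0.389).

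Other genes followed the members over the 12 samples, as a description that shares library and group effects. Only 2043 of the 13050 genes tested had a symbol, because the gene list with symbols was available only in part. The matches named all begin with A or C, apart from transporter genes of the Slc family. Genes more alike may be among those not compared. Among 1260 genes with a symbol and a mean of at least 100 normalised counts, those with log2 CPM most like Acvr1 were Afap1l2 (Pearson r = 0.93), Slc39a10 (0.93) and Afap1l1 (0.92). Those most like Acvrl1 were AABR07040855.1 (0.94), Ccdc125 (0.93) and Akirin1 (0.93). Among 1261 genes, those most like Bmp6 were Anxa3 (0.88), Cbarp (0.87) and Slc35e4 (0.86).

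**Figure D4:**
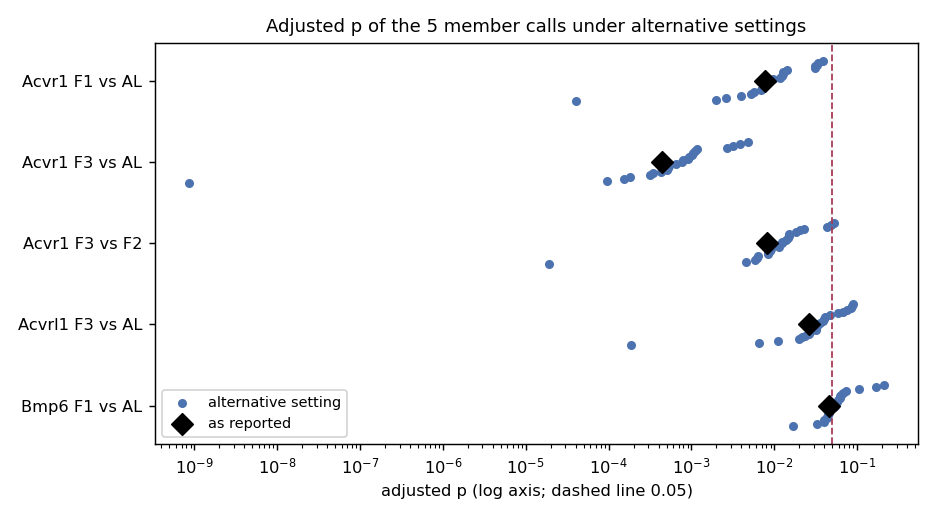
Adjusted p (horizontal log axis) of the 5 calls of members in comparisons of 2 groups, as reported (black diamonds) and under 23 alternative settings each (points, spread vertically for legibility). The dashed line marks 0.05. The points of Acvr1 against AL rats all lie left of the line, and 13 of the points of Bmp6 lie right of it. The point far to the left for each Acvr1 and Acvrl1 call is DESeq2.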

How the data were processed

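The authors aligned the reads with STAR to the rat genome (Rnor_6.0, per the labels) and deposited the number of reads per gene from HTSeq 0.5.3, as the submitters' processing notes list it, so the values are raw counts without normalization. The libraries were strand-specific, but the strand setting of the counting was not given in the sources used here, so overlapping genes on opposite strands cannot be told apart.

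The 4 technical replicates of each of the 12 samples were summed, giving 20718644 to 25960874 assigned reads per sample. The 13050 genes with at least 1 read in each sample entered 1 edgeR model (version 4.0.16 in R 4.3.3) with the 4 groups as its only term and TMM scaling, and quasi-likelihood tests were made of its contrasts. Benjamini-Hochberg adjustment covered the whole table, and calls had an adjusted p of at most 0.05. The p-values measure the spread between the 3 samples within a group, estimated over the 4 groups together. Each sample was a pool, so they do not measure the spread between single rats. The test was tried on simulated data with known changes. These were larger than those of Acvr1 and Acvrl1 and lay in genes with more reads than Bmp4 and Bmp6. The trial therefore did not cover changes of that size or genes of that level. Intervals are 95% intervals of the model.

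The members and gene lists were chosen with earlier results of these data known. All members are named, with values in every sample for those called against AL rats or with a mean of at least 1000 normalised counts, and for others where groups or samples stood apart. Of each list, the genes called and the most abundant are given. Values in every sample of Bmp4, Bambi and Bmp2 were added after they had been seen. Symbols come from the supplementary gene tables, which were available only in part and paired 2043 of the tested features. Alternatives were other scalings and filters, a replicate block from the sample letter, a fit of only the groups compared, each sample left out, the technical replicate with a conflicting label left out, a covariate for the mural markers and DESeq2 1.42.0. Promoters were taken from RefSeq (GRCr8) and only searched for 1 motif. Coordinates of different builds were not mixed.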

Additional observations from a re-analysis of the deposited data

Results flagged for a closer look

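Acvr1 differed between days of fasting when the days were compared directly. It was lower in F3 than in F2 rats (LFC -0.45, adjusted p = 0.00819), with all F3 samples at 3828 to 4377 normalised counts and all F2 samples at 5172 to 6071. Apln likewise was lower in F3 than in F2 rats (LFC -0.94, adjusted p = 0.0411), with 116 to 179.7 against 193 to 352 normalised counts. The Acvr1 call was lost under 1 of 23 other settings and the Apln call under 8. With 3 samples per group, single samples far from their group were not tested for.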

How the results depend on the processing

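Of 1101 refitted fold changes (48 fold changes under up to 23 alternatives), 1026 kept their direction and side of the threshold, 32 lost the call, 19 gained it and 24 changed sign. Sign changes came in fold changes that were not called, among them those of Bmpr1a in F2 and F3 rats with the mural covariate (-0.15 and -8.88e-05) and of Apln in F2 rats with upper-quartile scaling and with the mural covariate (0.0067 and 0.21). The others came with 1 sample left out. Over these, the LFC of Acvr2a lay between -0.16 and 0.038 in F1 rats, -0.18 and 0.062 in F2 rats and -0.061 and 0.11 in F3 rats, that of Acvr2b between -0.29 and 0.15 in F2 rats, and that of Bmp6 between -0.074 and 0.35 in F2 rats. Bmpr1a lay between -0.0032 and 0.65 in F2 rats and -0.22 and 0.51 in F3 rats, Bmpr2 between -0.10 and 0.098 in F1 rats, -0.30 and 0.21 in F2 rats and -0.11 and 0.093 in F3 rats, and Apln between -0.23 and 0.18 in F2 rats. The cause of none was tested.

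In F1 rats, the count of members called fell from 2 to 1 with total counts, with only the samples compared, without the technical replicate with the conflicting label and with the mural covariate, and also with the replicate block. It fell from 2 to 1 in F3 rats without a filter. Between F2 and F1 rats it rose from 0 to 2 with DESeq2. Between F3 and F2 rats the count of 1 became 2 with at least 10 reads and 0 with only the samples compared. With DESeq2 it became 3 (Acvr1, Acvrl1 and Bambi). In the joint test the count of 1 became 2 with total counts and 4 with DESeq2. With 1 sample left out, the counts were 1 to 2 in F1 rats, 1 to 2 in F3 rats, 1 to 2 between F3 and F2 rats and 1 to 2 in the joint test. Bmp4 could not be tested with at least 10 reads.

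The replicate block took the sample letter as a factor and called 1 member in F1 rats, Acvr1 (Bmp6 adjusted p = 0.0670), and changed no other count of members. What the letters mark is not given in the sources used here. Deviations from the group means of the 18 same-letter pairs correlated at -0.02 to 0.14, 3 of them over 0.1, and a sample was closest to its own letter in 19 of 36 comparisons with another group, where interchangeable letters would give 12. This is a hint from the data and not from the design. The block changed the calls over all genes between F2 and F1 rats from 186 to 108.

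Calls over all genes ranged over the alternatives from 308 to 1451 in F1 rats (856 as reported), 0 to 359 in F2 rats (112), 792 to 2368 in F3 rats (1572), 0 to 616 between F2 and F1 rats (186), 164 to 1242 between F3 and F2 rats (775), 0 to 24 between F3 and F1 rats (0) and 739 to 2090 in the joint test (1321). The most calls in F1 rats (1451) and F3 rats (2368) came without F2 sample j, which enters the spread shared by all groups. The adjusted p without it was 0.00647 for Acvrl1 in F3 rats and 0.0326 for Bmp6 in F1 rats. The low counts of Bmp4, Bmp6 and Bmpr1a limit what could be detected. Total counts moved the split of calls in F1 rats from 505 higher and 351 lower to 375 higher and 593 lower.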
